A study of Mus musculus with 5 samples.

Results

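The 10 genes described here write, copy and erase methyl groups on DNA or form the core of Polycomb repressive complex 2 (PRC2). They were taken by name (Dnmt1, Dnmt3a, Dnmt3b, Uhrf1, Tet1, Tet2, Tet3, Ezh1, Ezh2 and Eed) from a table of 24100 genes, and all 10 were present and passed the filter on low counts. RNA was sequenced from cells sorted out of the back skin of male mice on a CD1/C57Bl6J mixed background. Quiescent melanocyte stem cells (quiescent McSC) came from Dct-eGFP+ mice in the second telogen, at day 60 (replicate 1, 4 males pooled) and day 62 (replicate 2, 4 males pooled). Melanocytes came from Dct-EGFP+ Lef1-RFP+ mice in full anagen at day 10, with 3, 2 and 4 males pooled in replicates 1 to 3. The Dct reporter marks cells that use the promoter of a pigment enzyme gene. Both sorts took reporter-positive cells with medium to low integrin α6 and left out CD31, CD45, CD140a, Sca1 and CD34, and the melanocyte sort also required the Lef1 reporter and c-Kit. Age, hair cycle stage, reporter genotype and gate differ together between the groups and cannot be told apart. In this bulk measurement, fewer cells of a type and less RNA per cell cannot be told apart either.

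DNA methylation in mammals sits mostly on cytosines followed by guanine (CpG). After replication, UHRF1 binds the hemimethylated CpG and brings in DNMT1, which copies the mark to the new strand, whereas DNMT3A and DNMT3B place it on unmethylated sites. The TET dioxygenases oxidise methylcytosine, a step toward its removal. PRC2 methylates lysine 27 of histone H3 (H3K27) through EZH1 or EZH2, which are alternatives in the same position of the complex, and EED is a core subunit that both need. EZH2 is best known from dividing cells and EZH1 from resting ones.

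Total counts ranged from 17512381 to 124530834 per library, and the lowest count of any member was 118, for Tet1 in melanocyte replicate 3. Levels are read counts scaled to a common library size (CPM) with TMM factors, which adjust for composition, and differences are log2 fold changes of melanocyte minus quiescent McSC ± SE from the quasi-likelihood test of edgeR. A gene is called when its p, adjusted by Benjamini-Hochberg over all 16953 genes tested, is under 0.05. Melanocyte replicate 1 stood apart from replicates 2 and 3 in cell type markers. Its summed level of 12 melanocyte lineage genes was 3310 CPM, against 19310 and 21100 CPM in the others and 21627 and 22865 CPM in quiescent McSC. All 15 tested markers of the hair follicle and its shaft were called higher in melanocytes, summing to 3978 to 5545 CPM against 40.1 to 83.7 CPM. Among them Krt34 had no count in either quiescent McSC library and Krt72 none in replicate 1. Fibroblast and dermal papilla markers were higher for 9 of 11 (1981 to 5758 CPM against 63.7 to 88.9 CPM) and endothelial markers for 8 of 8 (23.5 to 55.5 CPM against 2.16 to 2.42 CPM). Keratinocyte markers were higher in melanocytes for 6 and lower for 5 of 12 genes, and were abundant in both groups. They summed to 3108 and 4295 CPM in quiescent McSC and 5199, 4644 and 3785 CPM in melanocytes. Krt10 read 657 and 1261 CPM in quiescent McSC against 70.5, 14.3 and 37.1 CPM, whereas Trp63 read 89.6 and 77.6 CPM against 611, 658 and 546 CPM. The other marker lists were higher and lower for 6 and 1 of 7 tested muscle and pericyte genes, 5 and 2 of 10 immune genes and 3 and 4 of 8 Schwann cell genes. Of the melanocyte lineage genes 1 was higher in melanocytes (Oca2) and 4 were lower (Mitf, Sox10, Pax3 and Kit). Without melanocyte replicate 1 the first count was 6. The 4 lower genes were lower in every melanocyte library, not in replicate 1 alone. Mitf read 43.7, 120 and 139 CPM in melanocytes against 1177 and 1033 CPM. Pax3 read 25.0, 69.9 and 87.2 CPM against 1189 and 1389 CPM. The part that the other cell types have in the levels below was not tested.

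Of the 10 members, 5 were called higher in melanocytes (Uhrf1, Tet3, Dnmt1, Ezh2 and Tet2), 1 was called higher in quiescent McSC (Ezh1) and 4 were not called (Dnmt3a, Dnmt3b, Tet1 and Eed). Over all genes tested, 29.1% were called toward melanocytes and 26.2% toward quiescent McSC, 55.4% in all, so being called is common in this comparison. The median log2 fold change of the members was 0.46 and that of all genes tested 0.03. The libraries of the groups did not overlap for 8 of the 10 members, against 74.5% of all genes tested. The log2 fold changes of the members ran from -2.14 for Ezh1 to 4.91 for Uhrf1, and 587 genes of the whole table (Uhrf1 included) were called with a fold change toward melanocytes at least as large.

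**Figure D1:**
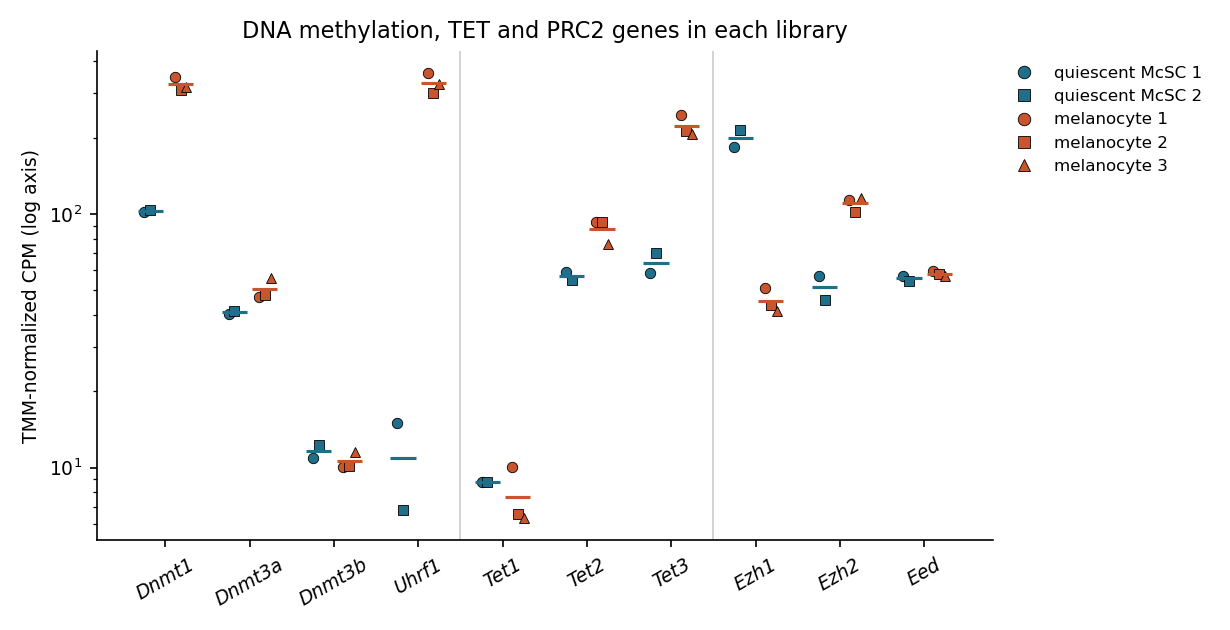
TMM-normalized CPM (log axis) of the 10 members in each library, grouped as DNA methylation, TET and PRC2 genes. Points are libraries and bars are group means (2 quiescent McSC and 3 melanocyte libraries). Uhrf1, Dnmt1, Tet3 and Ezh2 lie higher in all melanocyte libraries and Ezh1 lower, whereas Dnmt3b, Tet1 and Eed lie close together.

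The stretch before an annotated start site is shown for each of Uhrf1, Dnmt1, Ezh2 and Ezh1. The first 3 are the members with a word described below and Ezh1 is the alternative to Ezh2. This choice followed the words and not the sizes of the differences. RefSeq windows of 300 bases (250 before and 50 after each start, GRCm38.p6) were matched for all 10 members, 15 windows in all. Each was searched on both strands for the E2F words TTTCCCGC, TTTCGCGC, TTTGCCGC and TTTGGCGC, none of which is the reverse complement of another. E2F factors are transcription factors that turn on S phase genes. A word was found in 3 of the 10 members, against 3.3% of the 18038 genes of the count table that have a window. Every word holds a CpG, and the member windows were richer in CpG (medians of 23 against 13). These shares therefore do not compare like with like. In Uhrf1, in the second of its windows, the word starts 185 bases before the start on the same strand. Its first window, whose start lies upstream, held no word. Dnmt1, in the third of its windows, has a word on the opposite strand, 219 bases before the annotated start of that window. Another lies 33 bases after it, outside the stretch printed. These distances do not refer to the other starts of the gene. Its first and second windows held no word. Their starts lie upstream, so the stretch printed for Dnmt1 lies inside the annotated gene. The stretch printed for Uhrf1 also lies inside its annotated gene, and so does most of that for Ezh2. In Ezh2 the word starts 3 bases after the start. The other 7 members had none of these words in their windows. Among them are Tet3 and Tet2, which were called higher in melanocytes as Uhrf1, Dnmt1 and Ezh2 were, and Ezh1, which was called lower. A match of letters is a description and not a binding site. The stretches run 5′ to 3′ on the strand of the gene, from 250 bases before to 30 bases after the start, with the words in capitals. They lie at chr17:56304063-56304342 (plus strand), chr9:20952594-20952873 (minus), chr6:47595001-47595280 (minus) and chr11:101226434-101226713 (minus).
Uhrf1: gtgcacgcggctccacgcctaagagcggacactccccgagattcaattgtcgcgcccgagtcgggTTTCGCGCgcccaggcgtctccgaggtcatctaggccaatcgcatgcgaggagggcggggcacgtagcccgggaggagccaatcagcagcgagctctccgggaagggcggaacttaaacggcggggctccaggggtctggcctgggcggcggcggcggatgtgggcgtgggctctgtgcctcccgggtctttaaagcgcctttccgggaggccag
Dnmt1: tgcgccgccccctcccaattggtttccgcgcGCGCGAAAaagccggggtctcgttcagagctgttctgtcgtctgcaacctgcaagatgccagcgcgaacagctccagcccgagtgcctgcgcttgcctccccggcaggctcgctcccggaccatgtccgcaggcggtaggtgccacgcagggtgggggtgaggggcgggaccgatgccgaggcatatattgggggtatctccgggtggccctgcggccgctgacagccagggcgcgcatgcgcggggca
Ezh2: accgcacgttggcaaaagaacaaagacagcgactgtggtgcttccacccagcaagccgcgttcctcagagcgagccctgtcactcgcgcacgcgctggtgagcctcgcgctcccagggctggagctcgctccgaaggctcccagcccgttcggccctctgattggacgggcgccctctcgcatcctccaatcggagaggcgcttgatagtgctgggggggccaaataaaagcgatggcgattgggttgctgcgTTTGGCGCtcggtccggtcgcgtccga
Ezh1: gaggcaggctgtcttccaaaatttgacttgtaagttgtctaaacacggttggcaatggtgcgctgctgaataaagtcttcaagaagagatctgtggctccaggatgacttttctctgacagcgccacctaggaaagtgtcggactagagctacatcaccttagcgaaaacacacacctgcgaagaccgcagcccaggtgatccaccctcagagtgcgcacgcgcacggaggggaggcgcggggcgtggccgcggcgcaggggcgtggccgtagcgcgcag
The windows also differed in their CpG content. The median over the 15 windows was 23 CpG, against 13 over all windows of genes in the count table. The window of Tet2 held 57 CpG, a number reached by 0.179% of those windows, and those of Dnmt3a held 18 to 47. The printed windows of Uhrf1 and Dnmt1 held 33 each, that of Ezh2 31 and that of Ezh1 23, counted over all 300 bases.

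Both genes of maintenance methylation were higher in melanocytes. Uhrf1 (chromosome 17, 56303337 to 56323486) read 15.05 and 6.79 CPM in quiescent McSC replicates 1 and 2, and 360, 299.6 and 325 CPM in melanocyte replicates 1 to 3. The melanocyte libraries lay within 1.20-fold of each other and far above both quiescent McSC libraries, which themselves differed 2.22-fold. The log2 fold change was 4.91 ± 0.40 (edgeR adjusted p = 0.000266), from means of 10.9 ± 5.84 (SD, n = 2) to 328 ± 30.4 CPM (SD, n = 3), a ratio of 30.1. Dnmt1 (chromosome 9, 20907206 to 20959888), whose protein UHRF1 recruits, read 102 and 104 CPM in quiescent McSC and 349, 307 and 318 CPM in melanocytes. The groups were well apart and each was tight, with a log2 fold change of 1.66 ± 0.12 (edgeR adjusted p = 0.000194). Thus quiescent McSC still held Dnmt1 RNA at a mean of 103 ± 1.80 CPM while Uhrf1 RNA was at a mean of 10.9 CPM.

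The de novo enzymes differed little. Dnmt3a (chromosome 12, 3801559 to 3914443) read 40.3 and 41.6 CPM in quiescent McSC and 47.3, 48.0 and 55.9 CPM in melanocytes. All melanocyte libraries were above both quiescent McSC libraries, but the difference of 0.30 ± 0.12 was not called (edgeR adjusted p = 0.081), and its 95% interval ran from 0.00 to 0.60. It was called with library size as the only scaling (0.52, adjusted p = 0.0145) and after all libraries were thinned to the depth of the shallowest (0.42, adjusted p = 0.0392). Dnmt3b (chromosome 2, 153649411 to 153687730) read 10.9 and 12.3 CPM in quiescent McSC and 10.1, 10.1 and 11.5 CPM in melanocytes. These ranges overlapped, and the log2 fold change of -0.13 ± 0.19 had an interval from -0.58 to 0.32 (edgeR adjusted p = 0.571).

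Partners of the methylation machinery had calls in both directions, as all genes tested did (29.1% toward melanocytes and 26.2% toward quiescent McSC). Of 15 listed genes 14 were tested, with 7 called toward melanocytes, 4 toward quiescent McSC (Uhrf2, Idh2, Gadd45a and Gadd45b) and 3 in neither direction (Usp7, Ogt and Zdbf2), at a median log2 fold change of 0.33. The 7 became 4 when either quiescent McSC library was left out. Hells, a chromatin remodeller needed for DNA methylation of repeats, read 10.1 and 7.50 CPM in quiescent McSC and 108, 105 and 117 CPM in melanocytes (3.65 ± 0.18). Uhrf2, the paralog of Uhrf1, lay the other way, at 127 and 141 CPM against 43.0, 42.9 and 52.3 CPM (-1.54 ± 0.13, edgeR adjusted p = 0.000285). Dnmt3l, a cofactor of the de novo enzymes that is best known from germ cells, was at 0.0937 ± 0.019 CPM in quiescent McSC (5 and 12 counts) and 0.957 ± 0.527 CPM in melanocytes (56, 25 and 21 counts). Its call was lost without either quiescent McSC library (adjusted p = 0.076 and 0.0679) and after thinning (0.095).

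Of the TET genes, Tet3 and Tet2 were higher in melanocytes and Tet1 was not called. Tet3 (chromosome 6, 83362373 to 83457208) read 58.3 and 70.3 CPM in quiescent McSC and 246, 212 and 208 CPM in melanocytes. The lowest melanocyte library was well above the higher quiescent one, and the log2 fold change was 1.79 ± 0.15 (edgeR adjusted p = 0.000274). Tet2 (chromosome 3, 133463677 to 133545136) read 59.0 and 55.1 CPM in quiescent McSC and 92.7, 93.0 and 76.0 CPM in melanocytes. The groups did not overlap, and the smaller difference of 0.61 ± 0.13 was called (edgeR adjusted p = 0.0085), a call lost without quiescent McSC replicate 2 (0.56, adjusted p = 0.0687). Tet1 (chromosome 10, 62804570 to 62887469) was the lowest member per length and read 8.79 and 8.73 CPM in quiescent McSC and 10.01, 6.54 and 6.31 CPM in melanocytes. Melanocyte replicate 1, the library with the fewest lineage transcripts, lay above and the other melanocyte libraries below both quiescent McSC libraries. The log2 fold change of Tet1 was -0.20 ± 0.27, with an interval from -0.86 to 0.46 (edgeR adjusted p = 0.563). Dnmt3b and Tet1 changed sign with library size as the only scaling (0.09 and 0.03), a scaling that moved the median of all genes from 0.03 to 0.26, so both stayed below that median.

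Genes that act beside the TET enzymes were also measured. Tdg, the glycosylase that removes oxidised methylcytosine, was higher in melanocytes, at 190 ± 15.9 against 76.6 ± 5.54 CPM (1.31 ± 0.13). Gadd45a and Gadd45b, stress-induced genes linked to demethylation, were higher in quiescent McSC, with Gadd45b at 134 and 166 CPM against 27.9, 29.5 and 25.7 CPM (-2.44 ± 0.13) and Gadd45a at -1.90 ± 0.15. Idh2, the mitochondrial enzyme that makes α-ketoglutarate, the cosubstrate of TET proteins, read 663 and 806 CPM in quiescent McSC and 70.6, 77.4 and 94.4 CPM in melanocytes (-3.19 ± 0.18, edgeR adjusted p = 8.45e-05). Idh1, its cytosolic counterpart, lay the other way, at 52.8 and 49.9 CPM against 97.8, 119 and 108 CPM (1.08 ± 0.12, edgeR adjusted p = 0.000789). These genes differed by more than the spread between libraries, in opposite directions.

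Within PRC2 the catalytic subunits went in opposite directions. Ezh1 (chromosome 11, 101191115 to 101226463) read 184 and 216 CPM in quiescent McSC and 51.2, 43.7 and 41.4 CPM in melanocytes. Both quiescent McSC libraries lay far above all melanocyte libraries, and the log2 fold change was -2.14 ± 0.14 (edgeR adjusted p = 0.000119). Ezh2 (chromosome 6, 47530274 to 47595270) read 56.7 and 45.9 CPM in quiescent McSC and 114, 102 and 116 CPM in melanocytes (1.11 ± 0.14, edgeR adjusted p = 0.00105). Eed (chromosome 7, 89954654 to 89980976), the subunit common to both forms, read 56.9 and 54.4 CPM in quiescent McSC and 59.7, 57.9 and 57.0 CPM in melanocytes. The values of Eed almost touched between the groups, with a log2 fold change of 0.06 ± 0.10 and an interval from -0.17 to 0.30 (edgeR adjusted p = 0.601).

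The balance of Ezh1 and Ezh2 RNA can be read within each library, where no scaling between libraries enters. The mix of cells in a library still enters such a ratio. On levels per length (CPM per kilobase of the longest annotated transcript), the ratio of Ezh2 to Ezh1 was 0.464 and 0.322 in quiescent McSC and 3.35, 3.52 and 4.24 in melanocytes. Ezh1 thus made up 68.3% and 75.7% of the summed Ezh1 and Ezh2 level in quiescent McSC and 23.0%, 22.1% and 19.1% in melanocytes. The mean log2 ratio was -1.37 ± 0.38 (SD, n = 2) in quiescent McSC and 1.88 ± 0.18 (SD, n = 3) in melanocytes, a 9.53-fold difference. The groups did not overlap. An exact permutation test of 2 against 3 libraries gave p = 0.2 (two-sided), the smallest that this design allows, for this ratio and the others below, and 0.2 after adjustment over the 3 ratios compared. The summed level of Ezh1 and Ezh2 per kilobase was 64.2 and 67.7 in quiescent McSC and 52.9, 46.9 and 51.5 in melanocytes, a smaller difference than that of either gene.

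**Figure D2:**
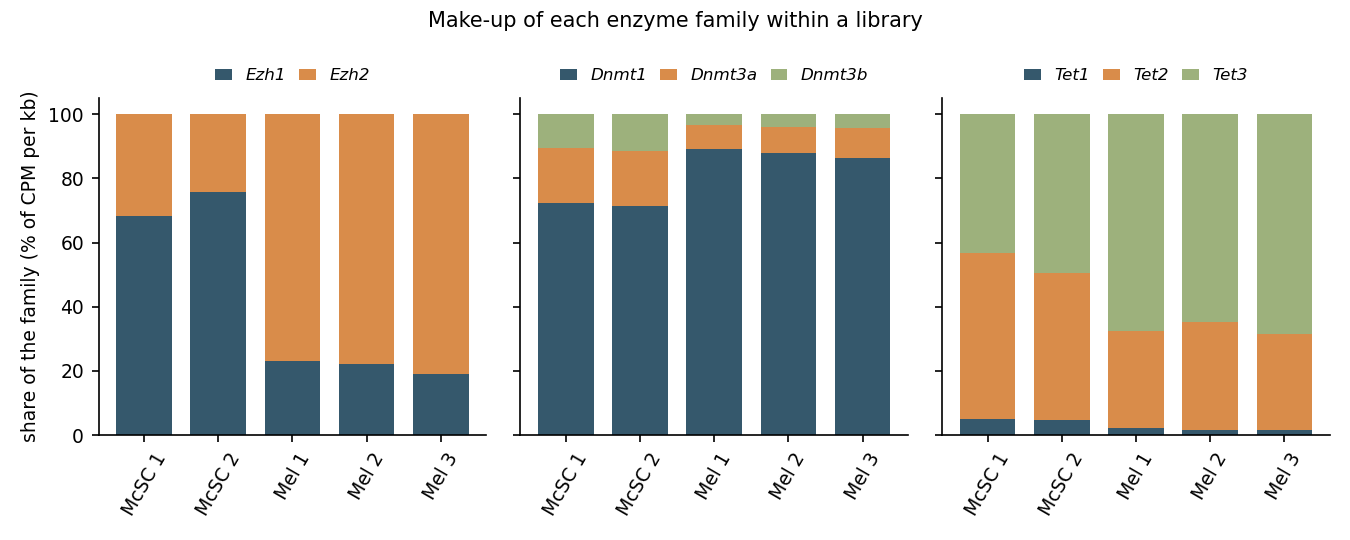
Share of each gene in its enzyme family within a library (percent of the family's summed CPM per kilobase of the longest annotated transcript) for 2 quiescent McSC (McSC) and 3 melanocyte (Mel) libraries. Ezh1 holds 68.3% and 75.7% of the EZH level in quiescent McSC and 19.1% to 23.0% in melanocytes, and the shares of Dnmt1 and Tet3 are larger in melanocytes.

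The make-up of the other families also differed between the groups, by less. Dnmt1 made up 72.2% and 71.3% of the summed Dnmt1, Dnmt3a and Dnmt3b level per kilobase in quiescent McSC and 89.2%, 87.8% and 86.5% in melanocytes. The log2 ratio of Dnmt1 to Dnmt3a was 1.36 higher in melanocytes, a 2.57-fold difference. Tet3 made up 43.2% and 49.4% of the summed TET level in quiescent McSC and 67.7%, 64.8% and 68.6% in melanocytes. The log2 ratio of Tet3 to Tet2 was -0.27 and 0.10 in quiescent McSC and 1.16, 0.94 and 1.20 in melanocytes, a 2.27-fold difference. Tet1 made up at most 4.94% of the TET level in any library.

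Per kilobase of the longest transcript, the order of the members changed between the groups. In quiescent McSC it ran Ezh1 (47.5 ± 5.22), Eed (26.9 ± 0.851), Ezh2 (18.4 ± 2.75), Dnmt1 (17.5 ± 0.307), Tet2 (6.22 ± 0.301), Tet3 (5.90 ± 0.779), Dnmt3a (4.23 ± 0.0973), Uhrf1 (3.04 ± 1.63), Dnmt3b (2.68 ± 0.224) and Tet1 (0.610 ± 0.00291), in CPM per kilobase (SD, n = 2). Ezh2 and Dnmt1 overlapped there, as did Tet2 and Tet3, and Uhrf1 overlapped with its neighbours on either side. In melanocytes the order ran Uhrf1 (91.5 ± 8.47), Dnmt1 (55.3 ± 3.66), Ezh2 (39.7 ± 2.73), Eed (28.2 ± 0.677), Tet3 (20.4 ± 1.92), Ezh1 (10.8 ± 1.22), Tet2 (9.50 ± 1.06), Dnmt3a (5.20 ± 0.495), Dnmt3b (2.45 ± 0.196) and Tet1 (0.530 ± 0.144) (SD, n = 3). Among these only Ezh1 and Tet2 overlapped with a neighbour. Uhrf1 thus moved from the eighth to the first place and Ezh1 from the first to the sixth. With the length of all annotated exons together in place of the longest transcript, a choice added after the data were seen, the melanocyte order was unchanged and the quiescent McSC order changed only between neighbours that overlap. The levels of Ezh1 and Ezh2 were then 26.9 and 7.69 in quiescent McSC and 6.11 and 16.6 in melanocytes.

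The other subunits of PRC2 mostly did not pass the test. Of 9 genes, 2 were higher in melanocytes (Suz12 and Rbbp4), 1 was higher in quiescent McSC (Phf1) and 6 were not called. Their median was 0.16. Over all genes tested 29.1% were called toward melanocytes and 26.2% toward quiescent McSC, 55.4% in all. With library size as the only scaling 6 of the 9 were called higher in melanocytes. Suz12, the core subunit that completes PRC2 with EED and an EZH protein, read 92.0 and 88.4 CPM in quiescent McSC and 188, 201 and 184 CPM in melanocytes (1.08 ± 0.11, edgeR adjusted p = 0.000481). Rbbp4, a histone-binding subunit that other complexes share, was 0.77 ± 0.13 higher, and its relative Rbbp7 stood at 243 ± 18.8 against 269 ± 12.1 CPM (0.15 ± 0.12, not called). Phf1, a Polycomb-like accessory subunit, read 198 and 244 CPM in quiescent McSC and 26.4, 12.6 and 26.0 CPM in melanocytes (-3.36 ± 0.33). Jarid2, an accessory subunit of another form of PRC2, stood at 122 ± 12.0 against 103 ± 21.3 CPM and was not called. Both H3K27 demethylases of the list, Kdm6a and Kdm6b, which remove the mark, were higher in quiescent McSC (-1.23 ± 0.09 and -1.47 ± 0.27), with Kdm6a at 156 and 160 CPM against 65.0, 69.2 and 67.7 CPM.

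Polycomb repressive complex 1 (PRC1), of which only the forms with CBX subunits bind the H3K27 mark through them, had calls in both directions. Of 20 subunits 8 passed the test toward melanocytes, 8 toward quiescent McSC and 4 in neither direction (Bmi1, Pcgf1, Pcgf2 and Phc2), with a median of -0.19. Calls over all genes tested were split about as evenly (29.1% and 26.2%), so the split is not particular to these subunits. The largest differences lay in alternative CBX subunits and in opposite directions. Cbx2 read 8.60 and 7.66 CPM in quiescent McSC and 90.4, 78.3 and 85.0 CPM in melanocytes (3.38 ± 0.14, edgeR adjusted p = 4.49e-05). Cbx7 read 213 and 277 CPM in quiescent McSC and 30.9, 13.7 and 22.0 CPM in melanocytes (-3.47 ± 0.34, edgeR adjusted p = 0.000482). Phc1 (-1.46 ± 0.10) and Pcgf5 (-2.10 ± 0.24) were higher in quiescent McSC, and Bmi1 stood at 86.9 ± 3.21 against 77.1 ± 2.78 CPM. Among 6 genes listed as readers of methylated CpG or their relatives, 3 were higher in melanocytes (Mbd3, Mbd2 and Zbtb38) and 3 lower (Zbtb4, Zbtb33 and Mbd1). Zbtb4, a zinc finger protein that binds methylated CpG, read 108 and 139 CPM in the quiescent McSC libraries, against 37.5, 28.1 and 33.2 CPM in those of melanocytes (-1.91 ± 0.17), and Mbd3 was 1.09 ± 0.11 higher in melanocytes. Without either quiescent McSC library the counts of readers were 1 and 1.

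**Figure D3:**
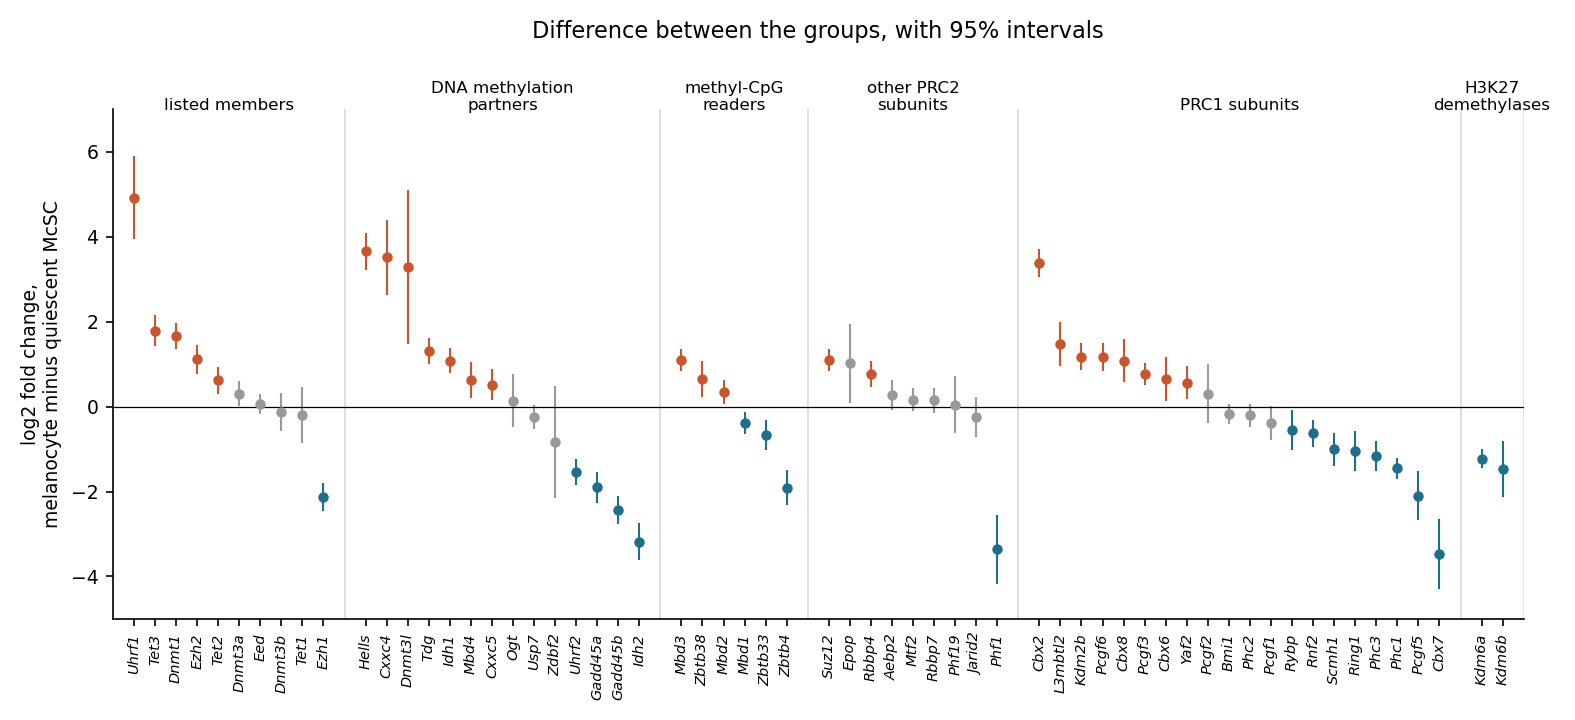
Log2 fold change (melanocyte minus quiescent McSC) with 95% intervals from the edgeR fit for the 10 members and the tested genes of 5 companion lists. Orange is called higher in melanocytes, blue higher in quiescent McSC and grey not called. Uhrf1, Hells and Cbx2 lie far above 0, and Ezh1, Idh2, Phf1 and Cbx7 far below.

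Because Uhrf1, Dnmt1 and Ezh2 are known to be expressed more in dividing cells, they are set beside cell cycle lists. Over all genes tested 29.1% were called toward melanocytes. Of 18 S phase genes 15 were higher in melanocytes and 3 not called (Pcna, Mcm4 and Gins2), with a median of 2.05. Their summed level was 2.504-fold higher, at 1153 and 1142 CPM against 2810, 2903 and 2911 CPM. All 16 G2 and M phase genes were higher in melanocytes, with a median of 4.59, and their sum was 26.4-fold higher (154 and 89.9 CPM against 3240, 3177 and 3238 CPM). The replication helicase genes Mcm2, Mcm3 and Mcm5 were higher by 3.01 ± 0.14, 2.80 ± 0.11 and 2.97 ± 0.13 on the log2 scale, and Tyms, which makes thymidylate, by 2.59 ± 0.12. Pcna, the replication clamp, stood at 434 and 442 CPM in quiescent McSC and 397, 425 and 420 CPM in melanocytes. Mki67, a marker of proliferation, read 36.6 and 12.2 CPM in quiescent McSC and 919, 874 and 873 CPM in melanocytes (5.19 ± 0.54). The mitotic genes Plk1, Tpx2, Cdk1 and Cdc20 were higher by 4.48 ± 0.15, 4.47 ± 0.15, 4.87 ± 0.17 and 2.80 ± 0.11. The uncalled Pcna and Mcm4 were the most abundant S phase genes in quiescent McSC (means of 438 and 213 CPM) and so weigh heavily in that sum. Gene by gene, the ratio of means in that list ran from 0.903 for Mcm4 to 27.3 for Rrm2. It was 3.15 for Dnmt1, 2.15 for Ezh2 and 30.1 for Uhrf1. The quiescent McSC libraries differed between themselves in the same genes. Replicate 1 was 2.22-fold above replicate 2 in Uhrf1, 1.71-fold in the G2 and M sum and 2.09-fold in the hair follicle marker sum. The same ratio was 1.24 for Ezh2, 1.01 for the S phase sum and 0.976 for Dnmt1. Single S phase genes went both ways behind that sum. In replicates 1 and 2 Rrm2 read 11.2 and 6.35 CPM and Cdc6 2.15 and 0.964 CPM, whereas Cdt1 read 35.5 and 47.8 CPM. The part of hair follicle RNA or of dividing cells in the quiescent McSC value of Uhrf1 was not tested.

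Members other than Tet1 varied at most 1.24-fold among melanocyte libraries, although these differed in their lineage markers. Melanocyte replicate 1 held 0.164 times the mean lineage marker sum of replicates 2 and 3 and 2.79 times their fibroblast marker sum. The ratio of replicate 1 to the mean of the other melanocyte libraries ran from 0.910 (Dnmt3a) to 1.56 (Tet1) over the 10 members, and was 1.15 for Uhrf1, 1.12 for Dnmt1, 1.20 for Ezh1 and 1.04 for Ezh2. Without replicate 1 the log2 fold changes were 4.85 for Uhrf1, 1.61 for Dnmt1, 1.71 for Tet3, 1.09 for Ezh2 and -2.23 for Ezh1. All of these were called by edgeR in that fit too.

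**Figure D4:**
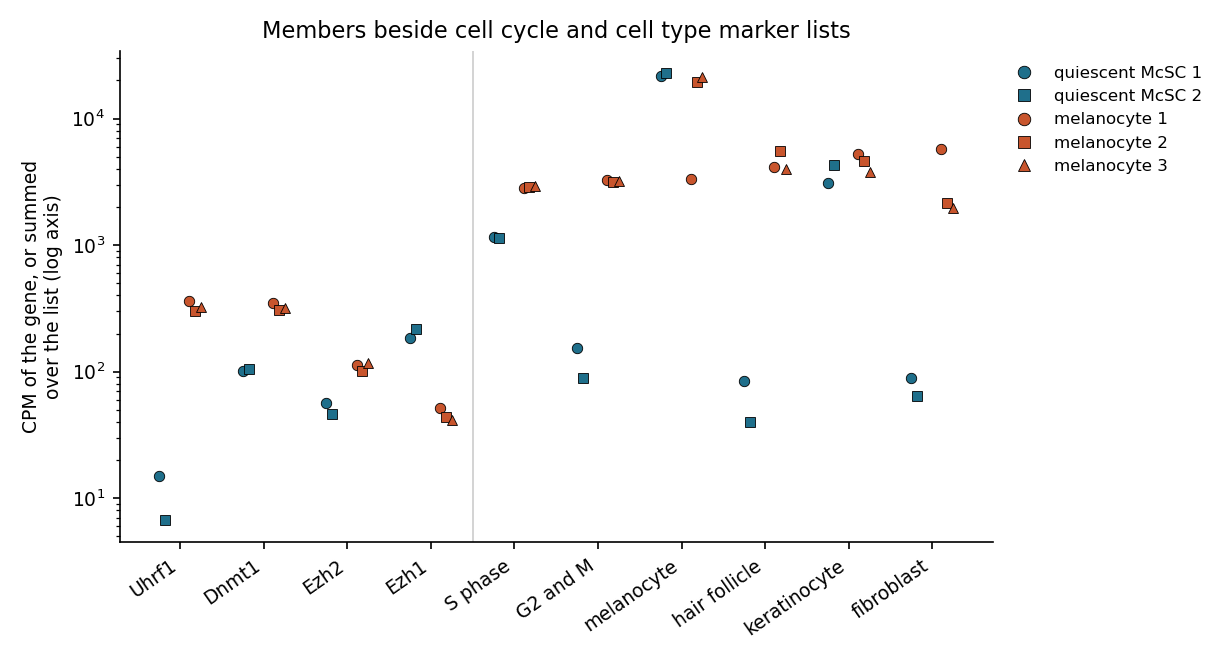
CPM of 4 members (left) and CPM summed over cell cycle and cell type marker lists (right) in each library, on a log axis. Melanocyte replicate 1 lies far below the others in melanocyte lineage genes and above them in fibroblast markers, while the members and cell cycle lists lie close together in all 3 melanocyte libraries.

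The genes with the most similar pattern were sought among 11490 tested genes with a mean of at least 5 CPM, by the root mean square distance between log2 CPM centred over the 5 libraries. Uhrf1 lay closest to Mcm10 (distance 0.05) and Kntc1 (0.10), Dnmt1 to N4bp3 (0.04) and Dgkz (0.04), and Tet3 to Eda (0.04) and Ptger4 (0.06). Ezh1 lay closest to Slc41a1 (0.05) and Stk40 (0.06), and Ezh2 to Samd4 (0.03) and Zgrf1 (0.05). With 5 libraries in 2 groups such distances mostly reflect the difference between the groups. Mcm10 read 2.42 and 1.10 CPM in quiescent McSC and 60.5, 53.1 and 54.5 CPM in melanocytes.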

How the data were processed

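Poly-A selected, non-stranded RNA libraries of sorted cells were compared as 2 quiescent McSC against 3 melanocyte libraries, each pooled from several males and a biological replicate per the labels. The deposited values are whole-number counts per Entrez gene, not normalized. The submitters' processing notes name mm10, STAR 2.5.2a and Salmon 0.8.2 without roles, and the counting program is not given in the sources used here. Of 24100 genes 24045 matched a RefSeq symbol (GRCm38.p6, that is mm10). Counts sum over all isoforms of a gene, and without strand reads of overlapping genes cannot be told apart. RefSeq genes overlapping members were at most 0.401 CPM where counted (Dnmt1, Dnmt3a and Tet3). Others overlapping Dnmt3a, Tet1 and Ezh2 were not in the table. Sequences are from RefSeq and transcript lengths from GENCODE M21.

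Counts were filtered with filterByExpr, scaled by TMM and tested two-sided in edgeR 4.0.16 (R 4.3.3, quasi-likelihood F-test, all 5 libraries, no covariates), after the procedure was tested on simulated data. SE were derived from the fold change and F, and intervals from the moderated degrees of freedom. With 3 counts as a floor, a library resolves 0.0241 to 0.171 CPM (counting error only). Alternatives were RLE size factors, library size only, the 20 most abundant genes left out of library sizes, no filter, at least 5 CPM in 2 libraries, DESeq2 1.42.0, limma-voom (limma 3.58.1), a replicate block, thinning, and leaving out each library. With 1 quiescent McSC library left out, the other is assumed to vary like the melanocytes.

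The members and lists (9 companion and 8 marker lists, 1 listed gene not in the table) were chosen with earlier results of these data known. Named were all members, up to 4 called genes of smallest p per companion list and a preset list of further genes. A few listed genes are not reported here. Genes naming counts of 5 or fewer, Idh1, and the ends of the S phase range were chosen after their values were seen, as was the setting of Uhrf1 beside Uhrf2 and of Cbx2 beside Cbx7.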

Additional observations from a re-analysis of the deposited data

How the results depend on the processing

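Across the 14 alternatives the 5 members called higher in melanocytes numbered 4 to 6 and the member called higher in quiescent McSC stayed 1. Uhrf1 (log2 fold change 4.44 to 5.59), Dnmt1 (1.61 to 1.88), Tet3 (1.66 to 2.02), Ezh2 (0.96 to 1.33) and Ezh1 (-2.25 to -1.91) were called in the same direction in all 14. Tet2 (0.54 to 0.84) lost its call without quiescent McSC replicate 2 (adjusted p = 0.0687, against 0.000495 to 0.0445 in the others). Dnmt3a (0.22 to 0.52) was called with library size only (0.52) and after thinning (0.42). With library size only Dnmt3b (0.0917) and Tet1 (0.0331) changed sign, and 63.7% of all calls were higher in melanocytes, against 52.6%. Eed (0.03 to 0.29) was called in none. Without quiescent McSC replicate 2 the genes higher in quiescent McSC over the whole table numbered 2955, against 4448. The 3 within-library ratios kept their direction after thinning and without each library. Deviations of same-numbered libraries from their group means correlated at 0.04 and -0.06. With 2 quiescent McSC libraries the deviation of 1 mirrors that of the other, so these values cannot decide whether libraries are paired. The replicate numbers do not pair animals, because the groups differ in age and reporter genotype. With the number as a block, the genes called across the whole table were 7412 (3933 toward melanocytes), against 9385, and the members called were the same, with Tet2 at an adjusted p of 0.0229. Of the values counted for 98 tested companion genes under these alternatives, 56 lost and 8 gained a call and 1267 kept it or stayed uncalled. Genes that an alternative filtered out, and uncalled values that changed sign, were not counted. With at least 5 CPM in 2 libraries, 49 companion genes were called toward melanocytes, against 56 in the main fit. The cause of these moves was not tested. Depth limits the lists of silent genes, where 3 counts equal 0.171 CPM in the shallowest library.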

Other observations

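Genes that DNA methylation or Polycomb complexes are known to keep silent were at low RNA levels in both groups. The 13 germline genes summed to 12.3 and 11.1 CPM in quiescent McSC and 8.80, 8.24 and 9.25 CPM in melanocytes, and only 6 passed the filter. Of these 2 were called toward melanocytes and 1 toward quiescent McSC, against 29.1% and 26.2% of all genes tested. Most of the sum in quiescent McSC was Brdt, a testis bromodomain gene, at 9.88 and 9.03 CPM against 2.98, 1.35 and 2.09 CPM (-2.15 ± 0.37, edgeR adjusted p = 0.00375). Sycp1, a gene of the meiotic synaptonemal complex, had 0 and 61 counts in quiescent McSC and 169, 210 and 72 in melanocytes. It was called higher in melanocytes (edgeR adjusted p = 0.043), a call lost without melanocyte replicate 2 (0.0886) or 3 (0.0775) or in the fit blocked by number (0.056). Tdrd1 (0.297 ± 0.0791 against 0.740 ± 0.0826 CPM) was called too and lost its call in 7 alternatives, among them leaving out either quiescent McSC library (0.0891 and 0.203).

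The 17 developmental genes known as Polycomb targets summed to 2.95 and 3.31 CPM in quiescent McSC and 5.30, 2.82 and 2.89 CPM in melanocytes, and 7 passed the filter. Of these 3 were called higher in melanocytes (Cdkn2a, Pax7 and Sox17), and 1 after thinning. Over all genes tested, 29.1% were called toward melanocytes and 55.4% in either direction. Cdkn2a, the classic Polycomb target at the Ink4a/Arf locus, had 1 and 0 counts in quiescent McSC and 9, 13 and 1 in melanocytes. Its call (edgeR adjusted p = 0.0181) was lost without quiescent McSC replicate 2 (0.116). Pax7 had 1 and 1 counts against 14, 12 and 11. Sox17, which endothelial cells also express, had 0 counts in both quiescent McSC libraries and 34, 52 and 10 in melanocytes, where endothelial markers summed to 23.5 to 55.5 CPM against 2.16 to 2.42 CPM. The part of endothelial RNA in Sox17 was not tested.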
